A study of Mus musculus with 20 samples.

Results

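The genes described here encode the proteins of the mitochondrial ribosome. They were chosen by symbol as all protein-coding mouse genes named Mrpl or Mrps followed by a number, with no use of their measured levels, and came to 78 of the 42374 genes in the tables, with 49 Mrpl genes, named for the large subunit, and 29 Mrps genes, named for the small subunit. Subunit counts below go by these symbols, although the proteins of some Mrps genes, Mrps18a and Mrps36 among them, are placed elsewhere. All 78 passed the filter on low counts and are among the 13971 genes tested. Their lowest estimated count in any library was 114.

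RNA was sequenced from endothelial cells, the lining of blood vessels, sorted from skeletal muscle of C57BL/6N mice by CD31 on the surface and absence of CD45. The soleus supplied oxidative muscle and the extensor digitorum longus supplied glycolytic muscle. Atf4 ECKO mice, labelled EC specific Atf4-/-, and WT mice were compared in each muscle, with 5 libraries in each of the 4 groups. Recombination was induced at 8 to 10 weeks of age with 1 mg tamoxifen a day for 5 days, and at least 7 days without treatment followed. The WT mice were littermates without Cre that also received tamoxifen, so all 4 groups carry the tamoxifen treatment and the Cre is present in the Atf4 ECKO groups alone. How many animals a library pools, what its replicate number stands for and which promoter drives the Cre are not stated in the labels. Each p-value is thus set against library-to-library spread within groups, and this spread may be technical.

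The mitochondrial ribosome translates the 13 proteins encoded by mitochondrial DNA, all of them subunits of the respiratory chain and ATP synthase. Its ribosomal RNAs come from mitochondrial DNA, whereas all of its proteins are encoded in the nucleus, made in the cytosol and imported. Atf4 encodes the main transcriptional effector of the integrated stress response. It is best known for raising genes of amino acid supply, and mitochondrial stress is among the signals that raise its own protein. Muscle endothelium draws much of its ATP from glycolysis, and the proteins of its mitochondrial ribosome serve the mitochondria it keeps for respiration and biosynthesis.

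Library totals ranged from 8013223 to 21720127 estimated counts. Atf4 itself, which checks the labels, lay between 7.97 and 8.70 CPM in Atf4 ECKO soleus endothelium against 535 to 589 CPM in WT soleus endothelium, and between 5.79 and 8.44 CPM in Atf4 ECKO glycolytic endothelium against 243 to 281 CPM in WT glycolytic endothelium (CPM, counts scaled to a common library total with TMM factors). All 20 libraries were rich in endothelial RNA. The sum of 8 defining genes such as Pecam1 and Cdh5 lay between 6769.8 and 7062 CPM in Atf4 ECKO soleus and 6546 and 6846 CPM in WT soleus, and, without overlap, between 5769.5 and 5878 CPM in Atf4 ECKO glycolytic and 7252 and 7378 CPM in WT glycolytic endothelium. RNA of other cells moved with the groups as well. The sum of 6 mural genes, of the pericytes and smooth muscle cells around vessels, lay between 735 and 1125 CPM in Atf4 ECKO soleus and 557 and 646 CPM in WT soleus, and between 1932 and 1995 CPM in Atf4 ECKO glycolytic and 790 and 803 CPM in WT glycolytic endothelium. That of 6 fibroblast genes lay between 60.2 and 421 CPM in Atf4 ECKO soleus and 134 and 323 CPM in WT soleus, and between 115 and 122 CPM in Atf4 ECKO glycolytic and 49.1 and 57.5 CPM in WT glycolytic endothelium. The sum of 12 immune genes lay between 43.2 and 97.3 CPM in Atf4 ECKO soleus and 366 and 463 CPM in WT soleus, and between 14.7 and 17.1 CPM in Atf4 ECKO glycolytic and 21.6 and 27.97 CPM in WT glycolytic endothelium. The sum of 12 muscle fibre genes lay between 196 and 267 CPM in Atf4 ECKO soleus and 100.3 and 204 CPM in WT soleus, and between 124.5 and 131 CPM in Atf4 ECKO glycolytic and 50.4 and 55.9 CPM in WT glycolytic endothelium. None of the genes in these lists was at 0 in a whole group. The sum of 4 Y-linked genes was 64.6, 65.6, 32.2, 0.932 and 1.097 CPM in libraries 1 to 5 of Atf4 ECKO soleus against 107 to 118 CPM in WT soleus, and 0.596 to 1.55 CPM in Atf4 ECKO glycolytic against 92.1 to 102 CPM in WT glycolytic endothelium, so that sex-specific RNA and genotype cannot be told apart. The part of other cells' RNA in the results below was not tested. Libraries 1, 2 and 3 of Atf4 ECKO soleus hold Y-linked RNA and libraries 4 and 5 hold almost none. Results that rest on this group are therefore also given without those 3 libraries, for the leading genes and wherever a member's call changes. That fit does not part genotype from sex-specific RNA. It sets libraries 4 and 5, with almost no Y-linked RNA, against WT libraries that all hold it. The Y-linked median log2 fold change for Atf4 ECKO against WT soleus was then -8.29, against -1.75 with all libraries. Xist, also sex-specific, stood at 18.6, 18.0, 43.8, 81.5 and 76.2 CPM in libraries 1 to 5 of Atf4 ECKO soleus, and at most 0.274 CPM in WT soleus. In bulk RNA of this kind, fewer cells and less RNA per cell cannot be told apart.

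Levels can be compared between genes only per transcript length, which the deposited TPM values provide. Mean TPM over the 20 libraries spanned 39.8-fold, with a median of 57.9 TPM over the 78 genes. Mrpl17, which encodes a large subunit protein conserved from bacteria, stood highest at 304 TPM. Mrpl33, the gene of another small conserved protein, followed at 281 TPM and Mrpl52 at 278 TPM, and the order of these 3 changed between groups. Atf4 ECKO soleus held 295 TPM ± 32.6 of Mrpl17, 274 TPM ± 20.1 of Mrpl33 and 272.5 TPM ± 12.8 of Mrpl52 (SD, n = 5). Those 3 did not differ beyond their spread in that group. After a gap came Mrpl20 at 174 TPM and Mrps21 at 168 TPM, whose order also changed between groups. At the low end stood Mrpl1, whose protein forms the mobile stalk beside the tRNA exit site, at 7.62 TPM, then Mrpl19 at 10.9 TPM and Mrps30 at 11.1 TPM, which did not differ beyond their spread. The 10th and the 69th gene in the order were 5.44-fold apart. The large subunit had a median of 58.8 TPM and the small subunit of 48.6 TPM.

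**Figure D1:**
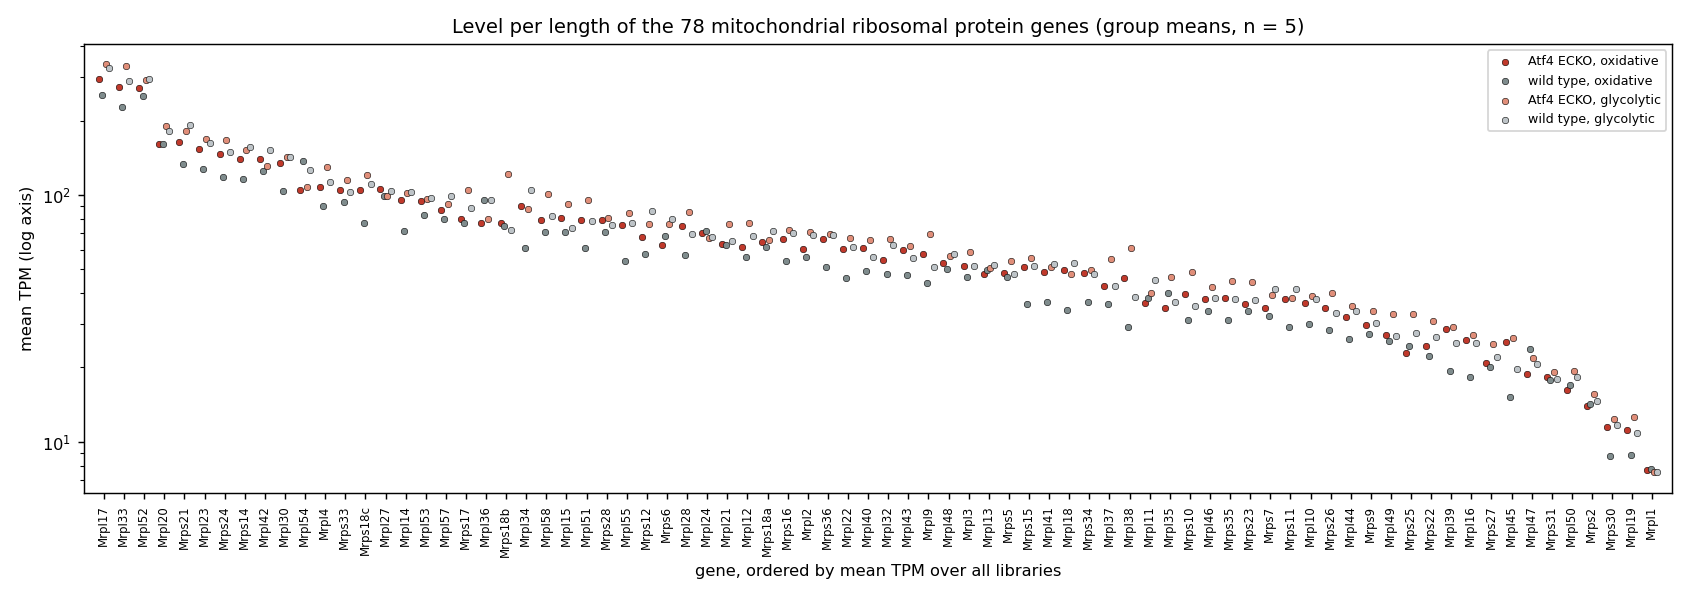
Mean TPM (log axis) of each of the 78 genes in each of the 4 groups, ordered by the mean over all libraries. Levels run between 7.62 and 304 TPM, and the 4 groups of a gene lie close together compared with the range over genes.

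Against this range of levels, the differences between groups were small. The highest and the lowest group mean of a gene, in CPM, were a median of 1.19-fold apart over the 78 genes. Of the 78, 11 genes stayed under 1.1-fold, with Mrps5 lowest at 1.05-fold. Only 4 genes were more than 1.5-fold apart, and these were Mrpl38 at 1.82-fold, Mrpl54 at 1.61-fold, Mrps18b at 1.55-fold and Mrpl36 at 1.52-fold. Libraries of a group agreed closely, with a median coefficient of variation over the genes of 7.60% in Atf4 ECKO soleus, 5.96% in WT soleus, 6.45% in Atf4 ECKO glycolytic and 6.84% in WT glycolytic endothelium. The median standard error (SE) of a log2 fold change was 0.07 in each of the 4 comparisons of groups. No member changed by more than 1 on the log2 scale in any of the 4 comparisons of groups, whereas 709 of all tested genes did so for Atf4 ECKO against WT in soleus. Those genes were not matched to the members for level.

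**Figure D2:**
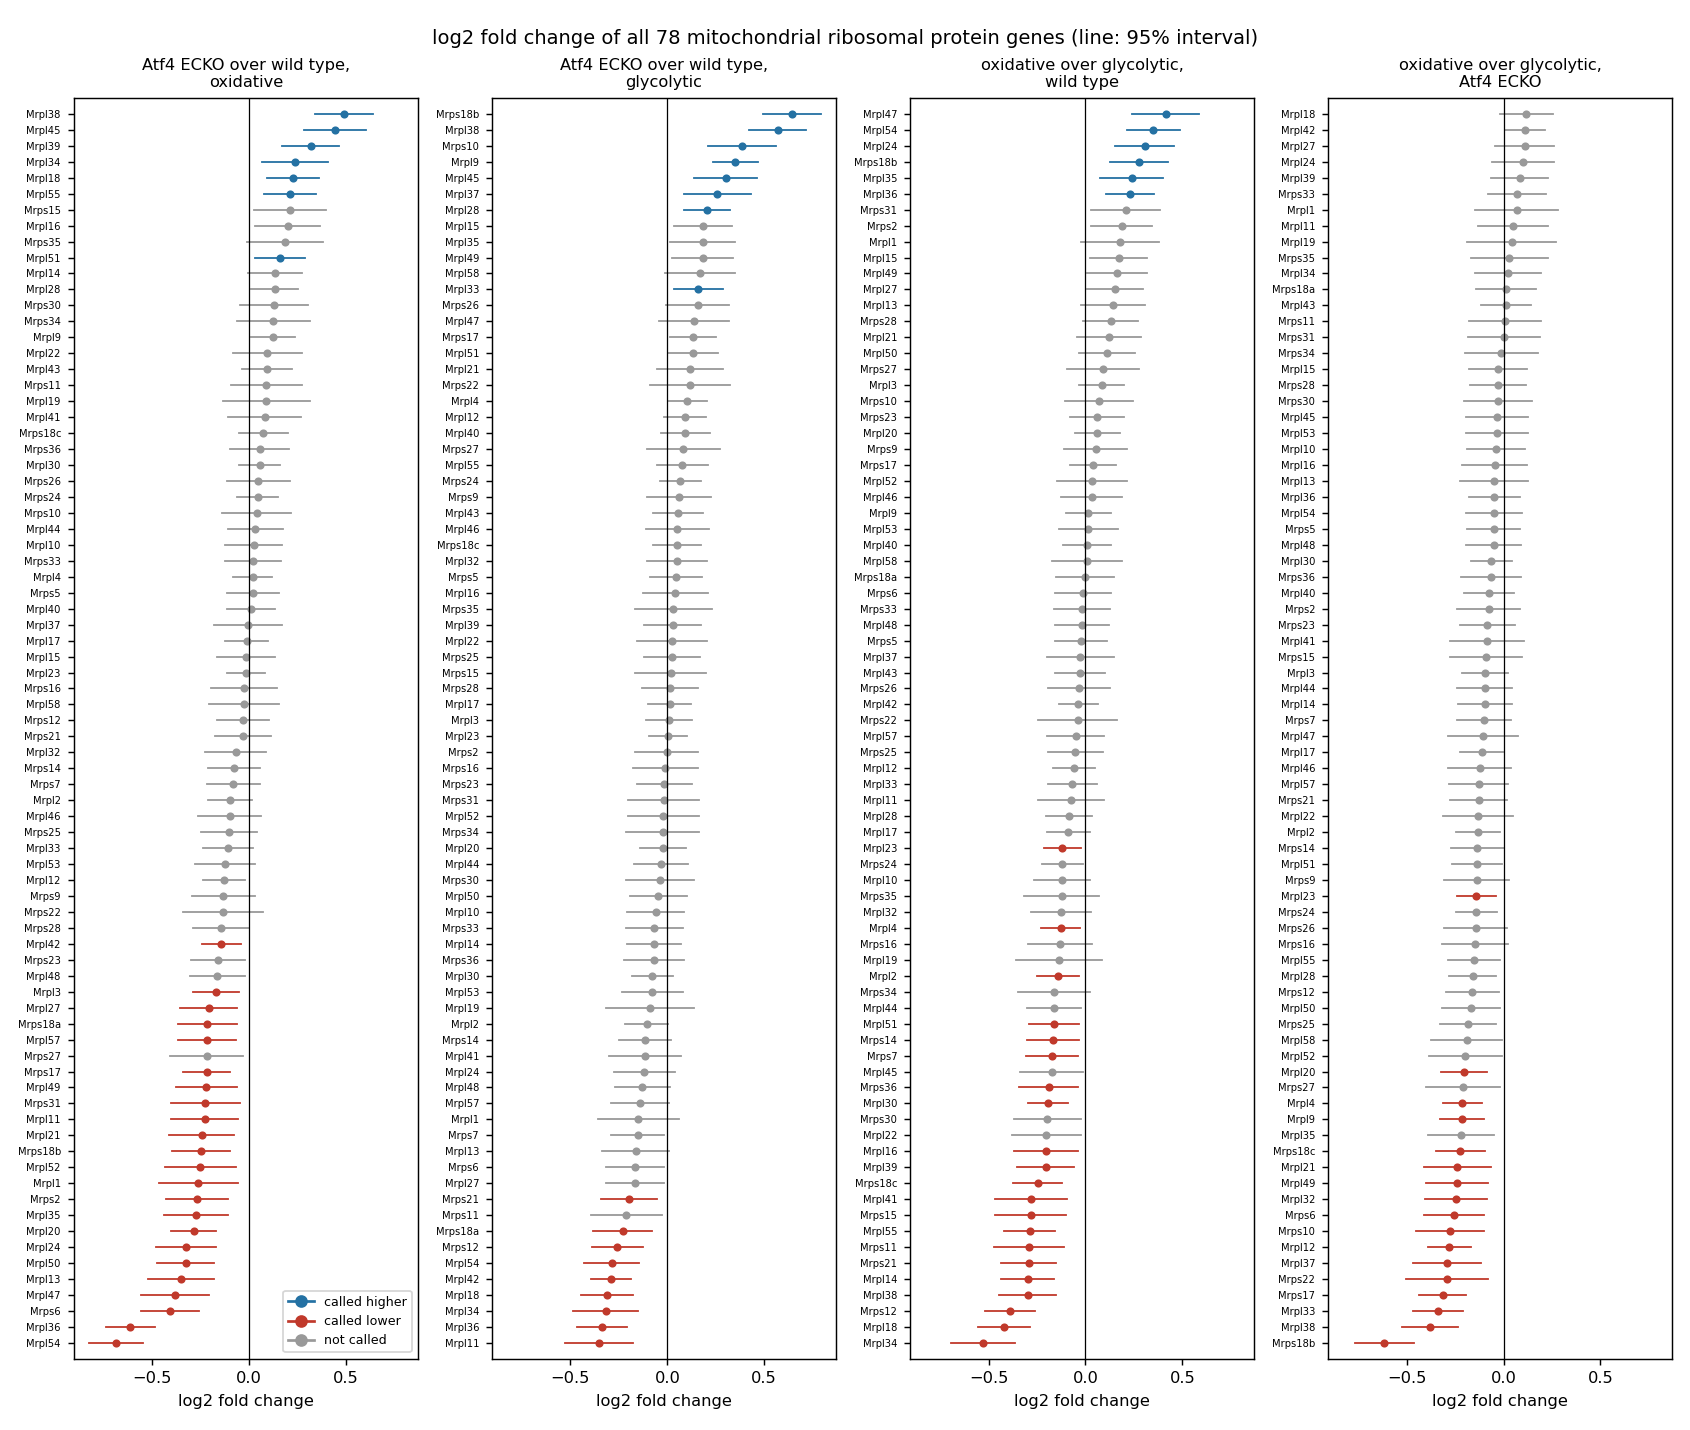
Log2 fold change of the 78 genes in each of the 4 comparisons of groups, ordered by size, with lines for the 95% interval, blue for genes called higher, red for genes called lower and grey for the rest. The Atf4 ECKO against WT values run from -0.69 to 0.49 in soleus and from -0.35 to 0.64 in glycolytic muscle.

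Promoters are shown for the genes whose change in Atf4 ECKO against WT differed most between the muscles. Those of some genes at the extremes of the response are shown as well. Each sequence is RefSeq's (GRCm38.p6) and runs from 250 bases before to 50 bases after the start, 5′ to 3′ on the gene's strand, in lower case with matches of the ETS, NRF1 and YY1 motifs in capitals and CCAAT left unmarked. Mrpl54 and Mrpl38, which had the largest fall and rise in soleus, are not among those shown. Also not shown are Mrps6, Mrpl11, Mrps10, Mrpl47 and Mrpl24, whose promoters held no match of the ETS, NRF1 or YY1 motif. All promoters shown hold such a match, so they do not stand for the leading genes as a whole. The capitals mark the ETS motif, read on the other strand, on chr17:35916391-35916690 (minus strand) in Mrps18b, and read as printed on chr17:12916042-12916341 (minus strand) in Mrpl18 and on chr8:71464676-71464975 (plus strand) in Mrpl34. They mark the YY1 motif, also read on the other strand, on chr13:73330759-73331058 (plus strand) in Mrpl36, and 3 matches of the NRF1 motif on chr11:97315466-97315765 (plus strand) in Mrpl45, of which the last is read on the other strand.
Mrps18b: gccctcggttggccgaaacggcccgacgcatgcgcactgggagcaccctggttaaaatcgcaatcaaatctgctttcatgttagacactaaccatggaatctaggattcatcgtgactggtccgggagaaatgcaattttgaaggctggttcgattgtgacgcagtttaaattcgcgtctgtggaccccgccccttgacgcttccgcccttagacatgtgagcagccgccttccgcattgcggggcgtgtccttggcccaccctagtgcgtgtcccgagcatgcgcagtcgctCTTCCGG
Mrpl18: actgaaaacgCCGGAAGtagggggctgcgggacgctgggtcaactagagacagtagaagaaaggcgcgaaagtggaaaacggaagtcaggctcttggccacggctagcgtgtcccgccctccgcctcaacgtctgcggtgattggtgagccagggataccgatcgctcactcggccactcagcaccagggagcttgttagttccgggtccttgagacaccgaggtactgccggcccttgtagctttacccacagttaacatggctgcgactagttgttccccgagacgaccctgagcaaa
Mrpl34: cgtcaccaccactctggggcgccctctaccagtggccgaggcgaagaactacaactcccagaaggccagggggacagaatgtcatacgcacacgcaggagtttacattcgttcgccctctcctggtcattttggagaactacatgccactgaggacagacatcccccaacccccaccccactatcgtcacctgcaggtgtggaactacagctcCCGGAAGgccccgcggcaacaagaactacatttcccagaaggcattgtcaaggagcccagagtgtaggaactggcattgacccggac
Mrpl36: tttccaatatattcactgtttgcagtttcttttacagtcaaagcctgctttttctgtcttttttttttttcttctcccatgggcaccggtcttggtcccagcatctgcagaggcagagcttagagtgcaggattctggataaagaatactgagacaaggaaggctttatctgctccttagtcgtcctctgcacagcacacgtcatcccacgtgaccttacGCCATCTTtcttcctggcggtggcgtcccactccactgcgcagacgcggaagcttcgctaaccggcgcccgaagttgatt
Mrpl45: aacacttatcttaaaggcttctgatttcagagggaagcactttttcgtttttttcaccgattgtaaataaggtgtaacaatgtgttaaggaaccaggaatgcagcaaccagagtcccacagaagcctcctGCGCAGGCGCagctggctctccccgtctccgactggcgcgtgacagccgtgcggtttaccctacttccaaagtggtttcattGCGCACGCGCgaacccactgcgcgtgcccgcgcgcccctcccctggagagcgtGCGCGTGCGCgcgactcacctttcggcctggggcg

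A promoter was at hand for 69 of the 78 genes. Motifs were searched on both strands and the letters of one motif hold no other; overlaps in position between matches were not removed. The ETS motif CCGGAAG, the core bound by GABP and related factors, stood in 25 of the 69 promoters, or 36.2%, against 9.12% of all 27025 promoters and 18.3% of the promoters of tested genes. The NRF1 motif, GCGC on each side of A and any base, bound by nuclear respiratory factor 1, stood in 13 of the 69, or 18.8%, against 4.78% of all and 10.4% of those of tested genes. The YY1 motif AAGATGGC stood in 12, or 17.4%, against 2.88% of all and 4.71% of those of tested genes. The full CRE letters TGACGTCA stood in 2 promoters, or 2.90%, against 1.88% of all and 3.23% of those of tested genes. The composite motif of C/EBP and ATF factors, TGATGNAAT, was in none of the 69 windows, and in 0.969% of all and 0.439% of those of tested genes. CCAAT stood in 27, or 39.1%, against 37.9% of all and 38.9% of those of tested genes. These are counts of letters in a window and say nothing of binding.

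The first comparison asks how these genes differed between Atf4 ECKO and WT soleus endothelium. More of them fell than rose. At an adjusted p below 0.05 (edgeR's quasi-likelihood test with Benjamini-Hochberg adjustment over all 13971 genes), 7 members were higher and 23 lower in Atf4 ECKO than in WT soleus, or 8.97% and 29.5% of the 78. Over all tested genes 14.6% were called higher and 17.4% lower, so that falls were more frequent and rises less frequent among the members than in the background. The changes were small, with a median log2 fold change of -0.03 over the members and 0.02 over all genes and a range of -0.69 to 0.49. A share of 2.56% of the members exceeded 0.5 on the log2 scale in size, against 17.7% of all genes. The background was not matched for level, and it includes genes far below the lowest member's mean of 15.4 CPM. For 71 members the whole 95% interval lay within 0.5 of 0. The large subunit held 7 higher and 17 lower of 49, and the Mrps genes named for the small subunit 0 higher and 6 lower of 29, with Mrps18a among the 6. That count of 0 in the small subunit came with 1 gene higher at an unadjusted p below 0.05, and DESeq2 and limma-voom also called 0. Whether the subunits differ was not tested. With an offset for effective transcript length 14 members were lower, and without the filter on low counts 4 were higher.

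Mrpl54, the gene of a large subunit protein found in mitochondrial but not bacterial ribosomes (ENSMUSG00000034932.4, GRCm38, chr10:81264713-81266934, minus strand), fell furthest. It had 34.4, 33.7, 31.2, 32.9 and 29.9 CPM in Atf4 ECKO soleus, against 46.8, 56.5, 56.5, 48.9 and 51.7 CPM in WT soleus. The 5 Atf4 ECKO libraries all lay below the 5 WT libraries, with a log2 fold change of -0.69 (SE 0.065, 95% interval -0.83 to -0.55, edgeR adjusted p = 4.03e-09). Mrpl36, whose short protein has a counterpart in bacteria (ENSMUSG00000021607.9, chr13:73328513-73332178, plus strand), had 39.6, 45.7, 40.5, 39.5 and 39.9 CPM in Atf4 ECKO soleus, against 59.6, 61.2, 67.6, 61.9 and 62.8 CPM in WT soleus. These groups did not overlap either, and the log2 fold change was -0.61 (SE 0.060, 95% interval -0.74 to -0.49, edgeR adjusted p = 6.39e-09).

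In the small subunit the lowest fold was that of Mrps6, a protein of the platform of the small subunit with a bacterial counterpart (ENSMUSG00000039680.10, chr16:92058270-92112227, plus strand). It had 31.5, 35.2, 29.1, 26.0 and 32.8 CPM in Atf4 ECKO soleus, against 38.9, 40.2, 40.8, 40.6 and 44.4 CPM in WT soleus. All Atf4 ECKO libraries were below all WT libraries, with a log2 fold change of -0.41 (SE 0.071, edgeR adjusted p = 5.15e-05). Slc5a3, a gene on the same strand whose exons overlap those of Mrps6, stood at 0.16 with an adjusted p of 0.303 in the same fit.

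The other members that fell were spread over the ribosome. Around the exit tunnel, through which new proteins leave, Mrpl47 fell by 0.38 and Mrpl24 fell by 0.33 on the log2 scale. Among the bacterial-type core proteins of the large subunit, Mrpl13 fell by 0.35 and Mrpl20 fell by 0.29. Mrpl50, a protein of the mitochondrial ribosome alone, fell by 0.33. The remaining called falls were those of Mrpl1, Mrpl3, Mrpl11, Mrpl21, Mrpl27, Mrpl35, Mrpl42, Mrpl49, Mrpl52, Mrpl57, Mrps2, Mrps17, Mrps18a, Mrps18b and Mrps31, of which Mrpl35 was the largest at -0.28.

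The largest rises were those of Mrpl38 and Mrpl45. Mrpl38, of the central protuberance (ENSMUSG00000020775.13, chr11:116131817-116138868, minus strand), had 38.5, 34.7, 38.5, 28.9 and 38.5 CPM in Atf4 ECKO soleus, against 24.03, 26.3, 26.7, 25.6 and 25.7 CPM in WT soleus. No library of either group reached into the other, although library 4 of Atf4 ECKO was well below its fellows, and the log2 fold change was 0.49 (SE 0.070, 95% interval 0.34 to 0.64, edgeR adjusted p = 4.25e-06). Mrpl45, which lies at the tunnel exit and ties the ribosome to the inner membrane (ENSMUSG00000018882.12, chr11:97315716-97329920, plus strand), had 43.5, 45.0, 43.0, 44.8 and 37.8 CPM in Atf4 ECKO soleus, against 28.1, 29.9, 38.3, 28.8 and 31.8 CPM in WT soleus. WT library 3 overlapped the lowest Atf4 ECKO library, and the log2 fold change was 0.44 (SE 0.076, edgeR adjusted p = 5.25e-05).

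Mrpl39, a protein resembling threonyl-tRNA synthetase (ENSMUSG00000022889.7, chr16:84717576-84735742, minus strand), had 44.3, 40.7, 45.4, 36.4 and 39.2 CPM in Atf4 ECKO soleus, against 31.2, 32.2, 35.6, 32.0 and 34.1 CPM in WT soleus. The groups did not overlap and the log2 fold change was 0.32 (SE 0.069, edgeR adjusted p = 0.000751). Without libraries 1, 2 and 3 of Atf4 ECKO soleus it was 0.19 and did not pass (edgeR adjusted p = 0.0972). With fewer libraries in the group, that fit cannot tell whether the call depends on those left out. Mrpl34 and Mrpl18, both at 0.23, Mrpl55 at 0.21 and Mrpl51 at 0.16 were the other rises, and none of these 4 passed without the same libraries.

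Leaving out those 3 libraries, which leaves 2 libraries in the group, gave 2 members higher and 21 lower. Of all 14856 genes tested in that fit, 1701 were called higher and 2107 lower. With all libraries these were 2035 and 2435 of 13971 genes. Fibroblast RNA also changed with this choice. All 6 fibroblast genes were then called higher in Atf4 ECKO than in WT soleus, with a median log2 fold change of 1.08. With all libraries 0 of them were called, with a median of 0.26. Of the falls, those of Mrpl1, Mrpl3, Mrpl11, Mrpl49 and Mrps31 no longer passed, with edgeR adjusted p between 0.0561 and 0.244, while Mrpl12, Mrpl53 and Mrps27 did pass as falls. Mrpl54 then stood at -0.74 (edgeR adjusted p = 2.60e-07), Mrpl36 at -0.66 (adjusted p = 1.95e-07) and Mrps6 at -0.46 (adjusted p = 0.000286). The 2 rises were Mrpl38 at 0.41 (adjusted p = 0.000997) and Mrpl45 at 0.38 (adjusted p = 0.00477).

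In glycolytic endothelium Atf4 ECKO against WT gave about as many rises as falls. Y-linked RNA and the Cre go with genotype in these libraries, so the deletion's own part cannot be told apart. In Atf4 ECKO against WT glycolytic endothelium 8 members were higher and 9 lower, or 10.3% and 11.5% of the 78, against 13.9% and 15.1% of all tested genes, which is near the background. The median log2 fold change was 0.01 over the members and 0.00 over all genes, with a range of -0.35 to 0.64, and 74 members had a 95% interval within 0.5 of 0. The large subunit held 6 higher and 6 lower, and the small subunit 2 higher and 3 lower.

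Mrps18b (ENSMUSG00000024436.16, chr17:35910379-35916389, minus strand) rose furthest. It is 1 of 3 mammalian genes related to a single bacterial S18 gene. Its levels were 75.3, 77.7, 80.6, 88.8 and 77.5 CPM in Atf4 ECKO glycolytic endothelium, against 55.9, 49.4, 51.2, 52.4 and 48.5 CPM in WT glycolytic endothelium. The groups were far apart, with a log2 fold change of 0.64 (SE 0.070, 95% interval 0.49 to 0.79, edgeR adjusted p = 7.98e-08).

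Mrpl38 had 46.7, 45.0, 50.6, 47.4 and 44.2 CPM in Atf4 ECKO glycolytic endothelium, against 31.9, 30.9, 32.2, 29.7 and 33.1 CPM in WT glycolytic endothelium. As in soleus the groups did not overlap, and the log2 fold change was 0.57 (SE 0.069, 95% interval 0.42 to 0.71, edgeR adjusted p = 3.76e-07). Mrps10, a protein of the head of the small subunit (ENSMUSG00000034729.16, chr17:47368887-47381417, plus strand), had 30.8, 32.9, 31.4, 30.5 and 27.7 CPM in Atf4 ECKO glycolytic endothelium, against 22.6, 23.95, 24.5, 23.1 and 23.4 CPM in WT glycolytic endothelium. All Atf4 ECKO libraries were higher, by 0.38 on the log2 scale (SE 0.083, edgeR adjusted p = 0.0009). The other rises were Mrpl9 at 0.35, Mrpl45 at 0.30, Mrpl37 at 0.26, Mrpl28 at 0.20 and Mrpl33 at 0.16.

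Of the falls, Mrpl11, at the base of the stalk that recruits translation factors (ENSMUSG00000024902.5, chr19:4962147-4966999, plus strand), was the largest. It had 23.1, 21.3, 19.4, 21.8 and 23.7 CPM in Atf4 ECKO glycolytic endothelium, against 27.5, 30.2, 24.5, 24.7 and 31.9 CPM in WT glycolytic endothelium. The groups did not overlap and the log2 fold change was -0.35 (SE 0.083, edgeR adjusted p = 0.00196). Mrpl36 had 40.2, 45.4, 42.6, 41.9 and 41.5 CPM in Atf4 ECKO glycolytic endothelium, against 47.1, 51.5, 56.9, 52.9 and 58.6 CPM in WT glycolytic endothelium, a log2 fold change of -0.34 (SE 0.060, edgeR adjusted p = 0.000107) without overlap.

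Mrpl34, another very short protein with a bacterial counterpart (ENSMUSG00000034880.7, chr8:71464959-71465747, plus strand), had 24.3, 24.7, 26.1, 25.4 and 30.7 CPM in Atf4 ECKO glycolytic endothelium, against 28.3, 32.4, 31.4, 31.3 and 39.4 CPM in WT glycolytic endothelium. Library 5 was the highest of each group, the groups overlapped, and the log2 fold change was -0.32 (SE 0.079, edgeR adjusted p = 0.00321). For Mrpl45, called in both muscles, the libraries held 46.0, 41.7, 45.6, 41.8 and 43.5 CPM in Atf4 ECKO and 31.8, 35.1, 38.0, 38.6 and 33.6 CPM in WT glycolytic endothelium. The further falls were Mrpl18 at -0.31, Mrpl42 and Mrpl54 at -0.29, Mrps12 at -0.26, Mrps18a at -0.23 and Mrps21 at -0.20. Mrpl54 had 32.6, 31.0, 36.1, 33.4 and 33.9 CPM in Atf4 ECKO glycolytic endothelium, against 42.3, 38.2, 45.1, 38.8 and 40.1 CPM in WT glycolytic endothelium, again without overlap. Mrps6 had 37.6, 36.2, 36.8, 38.2 and 35.4 CPM in Atf4 ECKO and 38.7, 42.5, 36.7, 45.3 and 43.1 CPM in WT glycolytic endothelium, a log2 fold change of -0.17 that did not pass (adjusted p = 0.0791).

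Mrps10 and Mrpl11, which led in glycolytic muscle, were also measured in soleus. Mrps10 had 25.9, 24.3, 29.3, 20.1 and 26.4 CPM in Atf4 ECKO soleus, against 25.3, 22.2, 27.9, 22.2 and 25.7 CPM in WT soleus, with a log2 fold change of 0.04 (edgeR adjusted p = 0.777). Mrpl11 had 22.4, 21.2, 22.3, 25.7 and 21.3 CPM in Atf4 ECKO soleus, against 25.3, 28.01, 28.6, 25.4 and 25.1 CPM in WT soleus, a called log2 fold change of -0.23 (adjusted p = 0.0324) with 1 Atf4 ECKO library inside the WT range. This was -0.18 and did not pass without libraries 1, 2 and 3 of Atf4 ECKO soleus (adjusted p = 0.244).

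**Figure D3:**
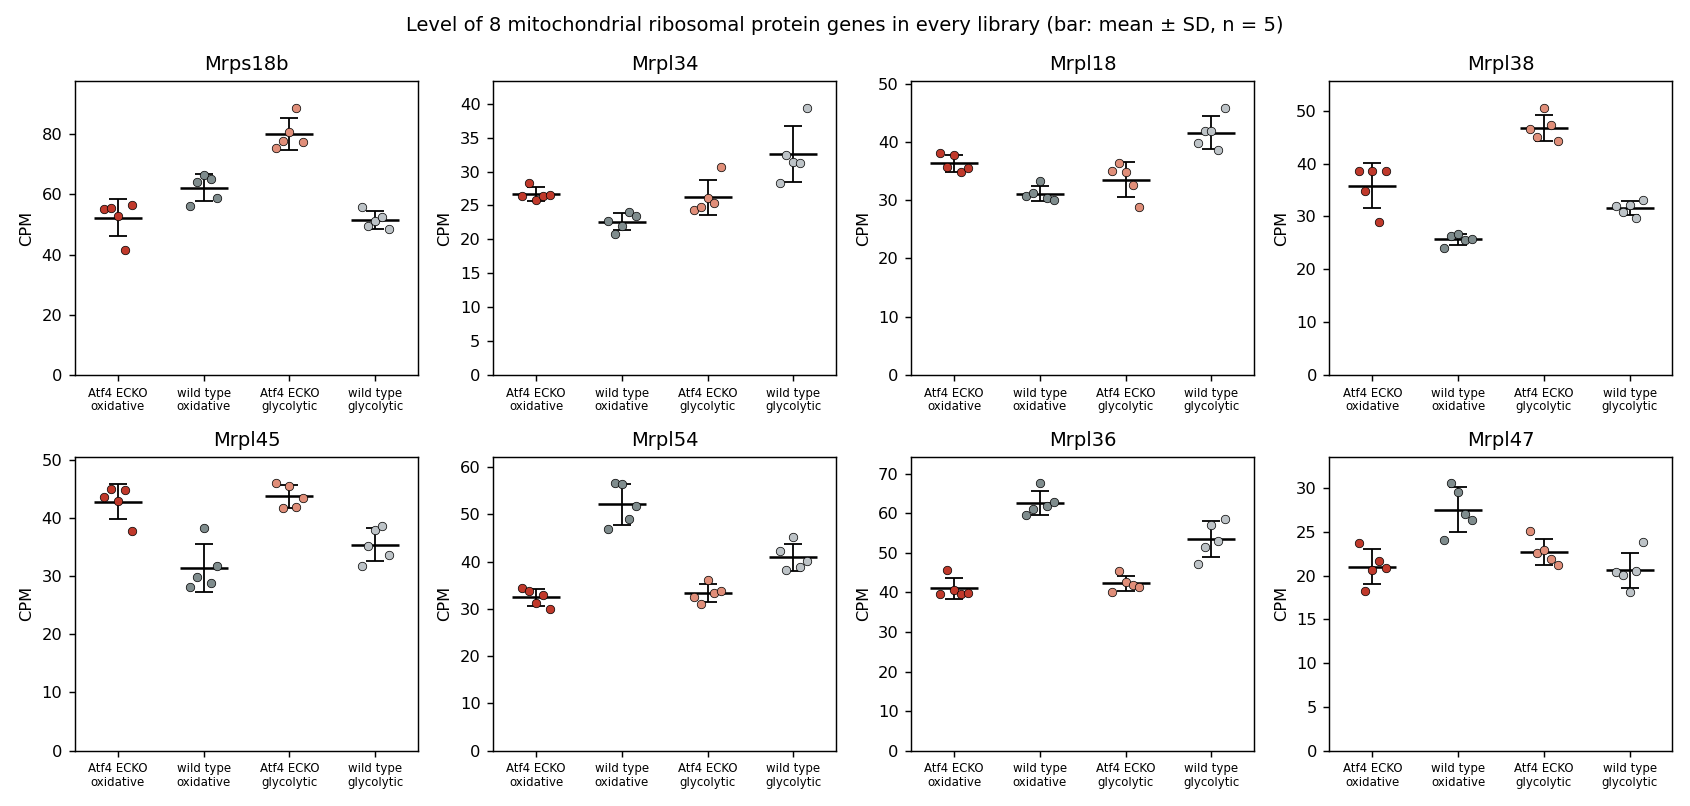
CPM of 8 of the genes in every library (points), with the mean ± SD of each group of 5 (bars), Atf4 ECKO left of WT in each muscle. Mrpl54 and Mrpl36 are lower and Mrpl38 is higher in all Atf4 ECKO libraries of both muscles than in the matching WT libraries, and Mrps18b is highest in the Atf4 ECKO glycolytic libraries, between 75.3 and 88.8 CPM.

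The effects in the 2 muscles come from separate libraries and can be set side by side. Members lower in Atf4 ECKO in both muscles were Mrpl11, Mrpl36, Mrpl42, Mrpl54 and Mrps18a, and those higher in both were Mrpl38 and Mrpl45. Called in opposite directions were Mrpl18 and Mrpl34, higher in soleus and lower in glycolytic muscle, and Mrps18b, lower in soleus and higher in glycolytic muscle. Without libraries 1, 2 and 3 of Atf4 ECKO soleus, the soleus changes of Mrpl11, Mrpl18 and Mrpl34 among these did not pass. They then stood at -0.18, 0.18 and 0.22 on the log2 scale. With fewer libraries in the group, that fit cannot tell whether the calls depend on those left out. Across the 78 genes the log2 fold changes of both muscles had a Pearson correlation of 0.31 and a Spearman correlation of 0.21. Of the 78, 44 genes had the same sign in both. These values describe genes, which are not independent replicates. They were not taken over all tested genes, so whether the members agree between muscles more than other genes cannot be told.

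Whether the effect of genotype, Atf4 ECKO against WT, differed between the muscles was tested by the interaction. This is the log2 effect in soleus minus that in glycolytic muscle. The interaction was called positive for 3 members and negative for 14, or 3.85% and 17.9%, against 10.1% and 12.5% of all tested genes. The counts were 2 and 15 when libraries 1, 2 and 3 of Atf4 ECKO soleus were left out, against 1450 and 1709 of all 14856 genes tested in that fit. Mrpl39, Mrpl9, Mrpl33 and Mrpl50 then no longer passed, while Mrpl15, Mrpl37, Mrpl58 and Mrps27 did, with negative differences. Positive calls numbered 5 without library 5 of Atf4 ECKO soleus, and negative calls 8 without library 3 of Atf4 ECKO glycolytic endothelium. With an offset for effective length 6 were positive and 6 negative, and without the low-count filter 7 were negative. The median was -0.06 over the members and 0.01 over all genes. The 3 positive calls were all in the large subunit and the negative ones comprised 11 large and 3 small subunit genes. The small subunit's count of 0 positive calls came with 2 genes at an unadjusted p below 0.05, and DESeq2 and limma-voom likewise called 0.

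Mrps18b had the strongest difference. In soleus it had 55.1, 55.4, 52.8, 41.5 and 56.4 CPM in Atf4 ECKO, against 56.0, 64.2, 66.4, 65.2 and 58.8 CPM in WT, a log2 fold change of -0.25 (SE 0.071, edgeR adjusted p = 0.00801) with 1 Atf4 ECKO library inside the WT range. Set against the rise of 0.64 in glycolytic muscle, the difference was -0.89 (95% interval -1.10 to -0.68, edgeR adjusted p = 1.68e-07), and -0.97 without libraries 1, 2 and 3 of Atf4 ECKO soleus (adjusted p = 2.82e-07). Its relatives moved otherwise. Mrps18a, whose protein sits in the large subunit despite its symbol, was at -0.22 in soleus (adjusted p = 0.0210) and -0.23 in glycolytic muscle (adjusted p = 0.0167). Mrps18c, on the small subunit, was at 0.07 (adjusted p = 0.389) and 0.05 (adjusted p = 0.578) in the same comparisons by edgeR.

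Mrpl18, a protein of the central protuberance (ENSMUSG00000057388.9, chr17:12911349-12916345, minus strand), went the other way. In soleus it had 38.0, 35.7, 37.7, 34.8 and 35.5 CPM in Atf4 ECKO, against 30.7, 31.2, 33.3, 30.3 and 29.98 CPM in WT, a log2 fold change of 0.23 (SE 0.064, edgeR adjusted p = 0.00737). In glycolytic muscle it had 35.1, 36.4, 34.7, 32.7 and 28.8 CPM in Atf4 ECKO, against 39.7, 41.9, 41.9, 38.5 and 45.9 CPM in WT, a log2 fold change of -0.31 (SE 0.064, edgeR adjusted p = 0.00047). Neither pair of groups overlapped, and all 10 Atf4 ECKO libraries lay below the 5 WT glycolytic libraries. The difference of effects was 0.54 (95% interval 0.35 to 0.73, edgeR adjusted p = 6.06e-05). Without libraries 1, 2 and 3 of Atf4 ECKO soleus the soleus change was 0.18 and did not pass (adjusted p = 0.140), while the difference of effects stayed called at 0.49 (adjusted p = 0.00121).

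For Mrpl34 the soleus libraries held 26.4, 28.4, 25.8, 26.4 and 26.6 CPM in Atf4 ECKO, against 22.6, 20.8, 21.9, 24 and 23.5 CPM in WT, without overlap. Its difference of effects was 0.55 (95% interval 0.31 to 0.79, edgeR adjusted p = 0.000599). Without the same 3 libraries the soleus change was 0.22 and did not pass (adjusted p = 0.133), and the difference of effects was 0.55 (adjusted p = 0.00359). The other positive difference was that of Mrpl39 at 0.29, which had 35.4, 39.5, 37.7, 42.4 and 39.1 CPM in Atf4 ECKO and 34.8, 40.6, 40.4, 34.8 and 39.8 CPM in WT glycolytic endothelium. Without the same 3 libraries it was 0.17 and did not pass (adjusted p = 0.296). Mrpl54 and Mrpl36 fell in both muscles, and the difference between their falls was itself called, at -0.40 (adjusted p = 0.00218) and -0.28 (adjusted p = 0.0182) by edgeR. The effect on Mrpl38 differed by -0.08 (adjusted p = 0.623) and that on Mrpl45 by 0.14 (adjusted p = 0.388), neither of which passed the test.

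**Figure D4:**
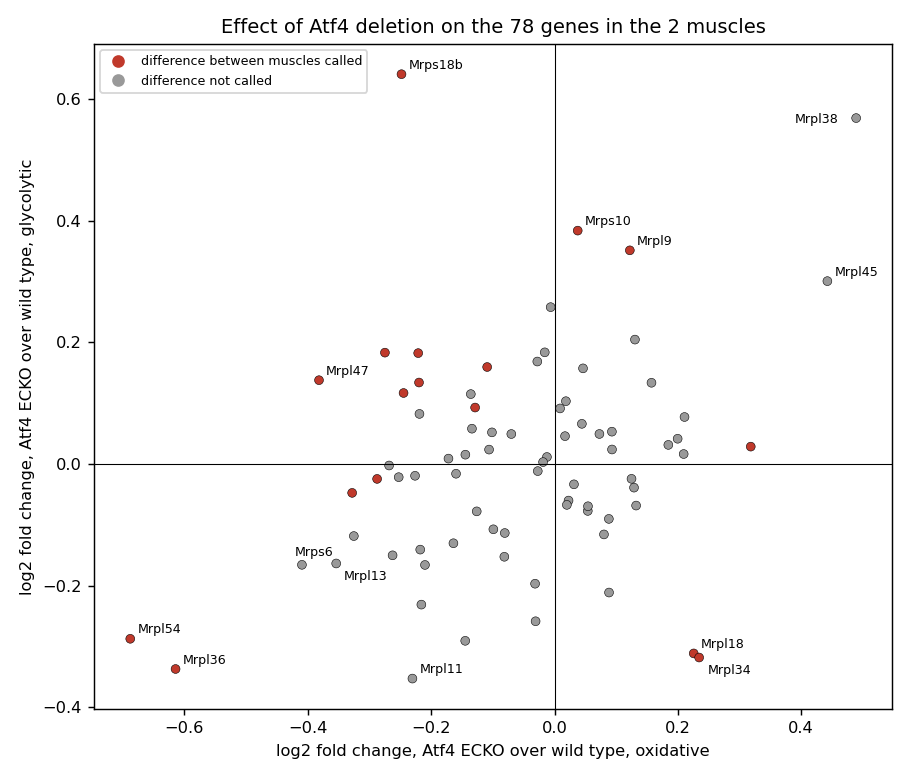
Log2 fold change of Atf4 ECKO against WT in oxidative muscle (horizontal) and in glycolytic muscle (vertical) for the 78 genes, with genes whose effects differed between the muscles in red. Mrps18b lies at -0.25 in oxidative and 0.64 in glycolytic muscle, and Mrpl38 is high in both at 0.49 and 0.57.

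Between the muscles of WT mice, soleus endothelium held less of these RNAs than glycolytic endothelium for more genes than the reverse. In oxidative against glycolytic WT endothelium 6 members were higher and 21 lower, or 7.69% and 26.9%, against 16.4% and 15.9% of all tested genes. The median log2 fold change was -0.05 over the members and -0.00 over all genes, with a range of -0.53 to 0.41, and 74 members had intervals within 0.5 of 0. The large subunit held 5 higher and 13 lower, and the small subunit 1 higher and 8 lower. The count of lower members was 13 without the filter on low counts, and also without library 5 of WT soleus or library 4 or 5 of WT glycolytic endothelium. A fit of the compared groups alone called 10 higher.

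Mrpl34 was lowest relative to glycolytic WT endothelium, at -0.53 (95% interval -0.70 to -0.36, edgeR adjusted p = 6.56e-06), and Mrpl18 followed at -0.42 (95% interval -0.55 to -0.29, adjusted p = 7.09e-06). Their WT libraries, listed above, did not overlap between the muscles. Mrps12, a protein of the decoding centre (ENSMUSG00000045948.8, chr7:28739641-28741820, minus strand), had 27.5, 29.6, 25.6, 28.5 and 27.8 CPM in WT soleus, against 36.6, 35.1, 35.5, 38.4 and 36.1 CPM in WT glycolytic endothelium. Each soleus library was lower, with a log2 fold change of -0.39 (SE 0.061, edgeR adjusted p = 1.59e-05). In Atf4 ECKO, Mrps12 had 28.4, 27.1, 28.2, 27.8 and 24.6 CPM in soleus and 28.6, 31.4, 31.6, 27.8 and 32.7 CPM in glycolytic endothelium.

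Furthest above glycolytic WT endothelium in WT soleus were Mrpl47, Mrpl54 and Mrpl24. Mrpl47 (ENSMUSG00000037531.8, chr3:32725397-32737605, minus strand) had 24.1, 30.5, 29.6, 27.1 and 26.4 CPM in WT soleus, against 20.4, 20.1, 18.1, 20.5 and 23.8 CPM in WT glycolytic endothelium. Its groups did not overlap, with a log2 fold change of 0.41 (SE 0.082, edgeR adjusted p = 0.00027). Mrpl24 (ENSMUSG00000019710.13, chr3:87919506-87923672, plus strand) had 63.8, 65.0, 61.1, 63.1 and 51.3 CPM in WT soleus, against 47.0, 46.7, 54.9, 43.0 and 54.5 CPM in WT glycolytic endothelium, a log2 fold change of 0.31 (SE 0.072, edgeR adjusted p = 0.00174). Library 5 of WT soleus lay within the glycolytic range. Mrpl54 was at 0.35 (adjusted p = 9.56e-05), and Mrps18b, Mrpl35 and Mrpl36 were the other genes called higher. In Atf4 ECKO soleus, Mrpl47 had 23.7, 18.2, 20.7, 21.7 and 20.9 CPM and Mrpl24 had 49.4, 50.7, 43.1, 47.9 and 51.6 CPM. In Atf4 ECKO glycolytic endothelium, Mrpl47 had 25.1, 22.6, 22.9, 21.9 and 21.2 CPM and Mrpl24 had 48.2, 48.2, 42.8, 42.6 and 45.4 CPM.

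Besides Mrpl34, Mrpl18 and Mrps12, the genes lower in WT soleus were Mrpl2, Mrpl4, Mrpl14, Mrpl16, Mrpl23, Mrpl30, Mrpl38, Mrpl39, Mrpl41, Mrpl51, Mrpl55, Mrps7, Mrps11, Mrps14, Mrps15, Mrps18c, Mrps21 and Mrps36. Among them Mrpl38 was at -0.30 (edgeR adjusted p = 0.00161). Mrps36, at -0.19 (adjusted p = 0.0415), keeps a ribosomal name although its protein is now placed in the 2-oxoglutarate dehydrogenase complex.

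Between the muscles of Atf4 ECKO mice the members differed in 1 direction. In oxidative against glycolytic Atf4 ECKO endothelium 0 members were higher and 17 lower, or 0% and 21.8%, against 8.31% and 10.1% of all tested genes by edgeR. The count of 0 came with 1 gene higher at an unadjusted p below 0.05, and DESeq2 and limma-voom also called 0, whereas an offset for effective length called 1. Lower members numbered 10 without library 3 of Atf4 ECKO glycolytic endothelium and 11 without the filter on low counts. The median was -0.10 over the members and -0.00 over all genes, with a range of -0.62 to 0.12. The 17 comprised 11 large and 6 small subunit genes.

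Mrps18b stood at -0.62 (95% interval -0.77 to -0.46, edgeR adjusted p = 4.32e-07) and Mrpl38 at -0.38 (95% interval -0.52 to -0.23, adjusted p = 0.000222), each with no overlap of the libraries given above. Mrpl33 (ENSMUSG00000106918.3, chr5:31596935-31664384, plus strand) had 60.2, 60.6, 57.9, 55.5 and 63.5 CPM in Atf4 ECKO soleus, against 75.7, 74.7, 76.2, 75.2 and 74.5 CPM in Atf4 ECKO glycolytic endothelium. Its log2 fold change was -0.34 (SE 0.061, edgeR adjusted p = 0.000216), and the glycolytic libraries lay within 2 CPM of one another. In WT it had 64.9, 70.4, 67.9, 60.6 and 58.2 CPM in soleus and 58.7, 66.7, 68.1, 66.4 and 76.5 CPM in glycolytic endothelium. Without libraries 1, 2 and 3 of Atf4 ECKO soleus these were -0.70 for Mrps18b, -0.46 for Mrpl38 and -0.33 for Mrpl33, and 19 members were lower. Of all 14856 genes tested in that fit 1228 were lower, against 1412 of 13971 with all libraries. Mrpl9, Mrpl23, Mrpl32, Mrpl49 and Mrps22 then did not pass, and Mrpl28, Mrpl35, Mrpl51, Mrpl55, Mrpl58, Mrps24 and Mrps27 did.

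The other genes lower in Atf4 ECKO soleus included both stalk and core proteins. Mrps17 stood at -0.31 and Mrpl12, of the stalk that recruits translation factors, at -0.28. The rest were Mrpl4, Mrpl9, Mrpl20, Mrpl21, Mrpl23, Mrpl32, Mrpl37, Mrpl49, Mrps6, Mrps10, Mrps18c and Mrps22. Both comparisons between muscles share libraries with the comparisons of genotype, so their calls are not separate evidence.

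Over the 4 comparisons of groups 25 members passed no test, 23 passed 1, 24 passed 2, and Mrpl18, Mrpl34, Mrpl36, Mrpl38, Mrpl54 and Mrps18b passed 3 or 4. These are 32.1%, 29.5%, 30.8% and 7.69% of the members, against 42.97%, 19.7%, 24.1% and 13.2% of all tested genes. The 25 were Mrpl10, Mrpl15, Mrpl17, Mrpl19, Mrpl22, Mrpl40, Mrpl43, Mrpl44, Mrpl46, Mrpl48, Mrpl53, Mrpl58, Mrps5, Mrps9, Mrps16, Mrps23, Mrps24, Mrps25, Mrps26, Mrps27, Mrps28, Mrps30, Mrps33, Mrps34 and Mrps35. They include Mrpl58, a peptidyl-tRNA hydrolase that became part of the ribosome, and Mrpl10, which anchors the stalk. Mrpl17, the most abundant, had 128, 125, 131, 147 and 142 CPM in Atf4 ECKO and 144, 134, 132, 138 and 131 CPM in WT soleus. In glycolytic endothelium it had 146, 146, 149.8, 156 and 129 CPM in Atf4 ECKO and 141, 154, 144, 139.9 and 142 CPM in WT. Its 95% intervals for Atf4 ECKO against WT were -0.12 to 0.10 in soleus and -0.10 to 0.12 in glycolytic muscle.

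Mrpl1 and Mrpl19 were the least abundant. Mrpl1 had 14.4, 17.1, 14.2, 12.4 and 15.1 CPM in Atf4 ECKO and 17.5, 20.3, 18.7, 16.2 and 15.2 CPM in WT soleus, a called fall of -0.26 (edgeR adjusted p = 0.0387) with overlapping groups, which did not pass without libraries 1, 2 and 3 of Atf4 ECKO (adjusted p = 0.0561). In glycolytic endothelium Mrpl1 had 13.4, 13.4, 15.8, 12.9 and 14.3 CPM in Atf4 ECKO and 14.0, 17.5, 14.9, 14.7 and 15.8 CPM in WT. Mrpl19 had 19.7, 18.7, 16.97, 11.9 and 16.8 CPM in Atf4 ECKO and 15.9, 15.0, 16, 15.5 and 16.5 CPM in WT soleus, with library 4 of Atf4 ECKO alone at the low end. In glycolytic endothelium Mrpl19 had 17.5, 15.1, 17.2, 15.5 and 16.4 CPM in Atf4 ECKO and 14.8, 18.6, 17.8, 15.3 and 19.9 CPM in WT, and no comparison called it.

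The 78 genes lie on 17 chromosomes, with 11 of them on chromosome 11. Exons of 33 members overlap another gene, 8 on the same strand and 28 on the opposite strand, and 3 members, Mrpl23, Mrpl48 and Mrps36, have named pseudogenes. No source used here states whether the quantification used strand, so reads of such genes could be shared, and their values are uncertain to that extent. Of the genes that changed most, Mrpl18 overlaps Tcp1, Mrpl36 overlaps Ndufs6, Mrpl47 overlaps Actl6a and Ndufb5, and Mrpl24 overlaps Rrnad1, all on the opposite strand. Tcp1, a subunit of the cytosolic chaperonin, was at -0.17 (edgeR adjusted p = 0.0198) in soleus and 0.03 (adjusted p = 0.751) in glycolytic muscle for Atf4 ECKO against WT. Ndufs6, a subunit of complex I, was at -0.06 (adjusted p = 0.271) and -0.14 (adjusted p = 0.0175). Actl6a, a subunit of chromatin remodelling complexes, moved in the direction of Mrpl47, at -0.29 (adjusted p = 3.89e-05) for Atf4 ECKO against WT in soleus and 0.16 (adjusted p = 0.0107) for oxidative against glycolytic WT endothelium. Ndufb5, another subunit of complex I, was at -0.16 (adjusted p = 0.0235) and -0.13 (adjusted p = 0.0530) in the same comparisons, and Rrnad1 at 0.21 (adjusted p = 0.127) and -0.03 (adjusted p = 0.877). Mrps18b overlaps Gm16279, which averaged 0.981 CPM in Atf4 ECKO and 1.02 CPM in WT soleus. Whether reads were shared was not tested.

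A start site on the opposite strand lay within 1000 bases of the start of 33 members, and the partner was tested for 29. In 1 case, Mrpl46 and Mrps11, both genes are members. Apba3, whose start is 26 bases from that of Mrpl54, was at -0.10 (edgeR adjusted p = 0.337) in soleus and 0.04 (adjusted p = 0.775) in glycolytic muscle. Ppp1r10, a regulator of protein phosphatase 1 that starts 45 bases from Mrps18b, was at -0.61 (adjusted p = 2.33e-09) in soleus and -0.05 (adjusted p = 0.560) in glycolytic muscle. Over the 29 members with a tested partner, log2 fold changes of member and partner for Atf4 ECKO against WT were correlated. The Pearson correlation was 0.32 in soleus and -0.11 in glycolytic muscle, as a description across genes that share libraries. Mrpl46 and Mrps11 entered both as members and as each other's partner.

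Of the 18 genes whose libraries are listed, 10 drew over 90% of their counts from a single transcript, and 4 had no transcript over 50%. The transcript Mrpl54-201 held 99.3% of its gene's counts, Mrpl45-201 99.6%, Mrpl18-201 98.8%, Mrps6-201 98.3%, Mrpl36-201 97.2% and Mrps18b-201 92.3%. For Mrpl38 the coding transcript Mrpl38-201 held 75.3%, with 27.8 CPM in Atf4 ECKO and 18.3 CPM in WT soleus and 35.4 CPM in Atf4 ECKO and 23.8 CPM in WT glycolytic endothelium, the direction of the whole gene. Transcripts with retained introns, Mrpl38-204 and Mrpl38-205, held 6.79% and 12.9%. The 4 without a transcript over 50% were Mrpl11, whose leading transcript held 49.8%, Mrps10 at 44.5%, Mrpl24 at 42.7% and Mrpl17 at 32.2%. In Mrpl17 a transcript marked for nonsense-mediated decay held 32.0% of the counts.

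Summed over the 78 genes, the members made up 2992 CPM ± 99.9 in Atf4 ECKO soleus and 3137 CPM ± 42.0 in WT soleus, and 3266.5 CPM ± 61.7 in Atf4 ECKO glycolytic and 3224 CPM ± 96.6 in WT glycolytic endothelium (SD, n = 5). The sums overlapped between genotypes in both muscles, while all Atf4 ECKO soleus sums, 2860.6 to 3127.3 CPM, were below all Atf4 ECKO glycolytic sums, 3170.5 to 3324.5 CPM. The large subunit's sum was 2.10 times the small subunit's in both soleus groups and 2.05 times in both glycolytic groups.

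RNA encoded by mitochondrial DNA behaved otherwise. The 13 protein-coding mitochondrial RNAs, the templates of this ribosome, summed to 63160 CPM ± 12466 in Atf4 ECKO soleus and 101890 CPM ± 11240 in WT soleus, and to 38234 CPM ± 562 in Atf4 ECKO glycolytic and 41913 CPM ± 1845.5 in WT glycolytic endothelium. All 13 were called lower in Atf4 ECKO than in WT soleus, with a median log2 fold change of -0.70, or -0.99 without libraries 1, 2 and 3 of Atf4 ECKO, and all 13 were called higher in WT soleus than in WT glycolytic endothelium, with a median of 1.33. In glycolytic muscle their log2 fold changes for Atf4 ECKO against WT ran from -0.21 to 0.14, with edgeR adjusted p between 0.0829 and 0.752. Within Atf4 ECKO soleus the sums of libraries 1 to 5 were 77924, 74430, 59868, 53681 and 49897 CPM, with the libraries that held most Y-linked RNA highest. Muscle fibre RNA was higher in this group than in WT soleus, as given above, and its part in these sums was not tested. Relative to the summed members, the mitochondrial templates stood at 21.0-fold ± 3.53 in Atf4 ECKO soleus and 32.5-fold ± 3.58 in WT soleus, and at 11.7-fold ± 0.302 in Atf4 ECKO glycolytic and 13.02-fold ± 0.867 in WT glycolytic endothelium. The mitochondrial ribosomal RNAs mt-Rnr1 and mt-Rnr2, which a poly(A) library captures in part, were at -0.88 (adjusted p = 4.49e-09) and -0.67 (adjusted p = 3.08e-08) for Atf4 ECKO against WT in soleus.

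**Figure D5:**
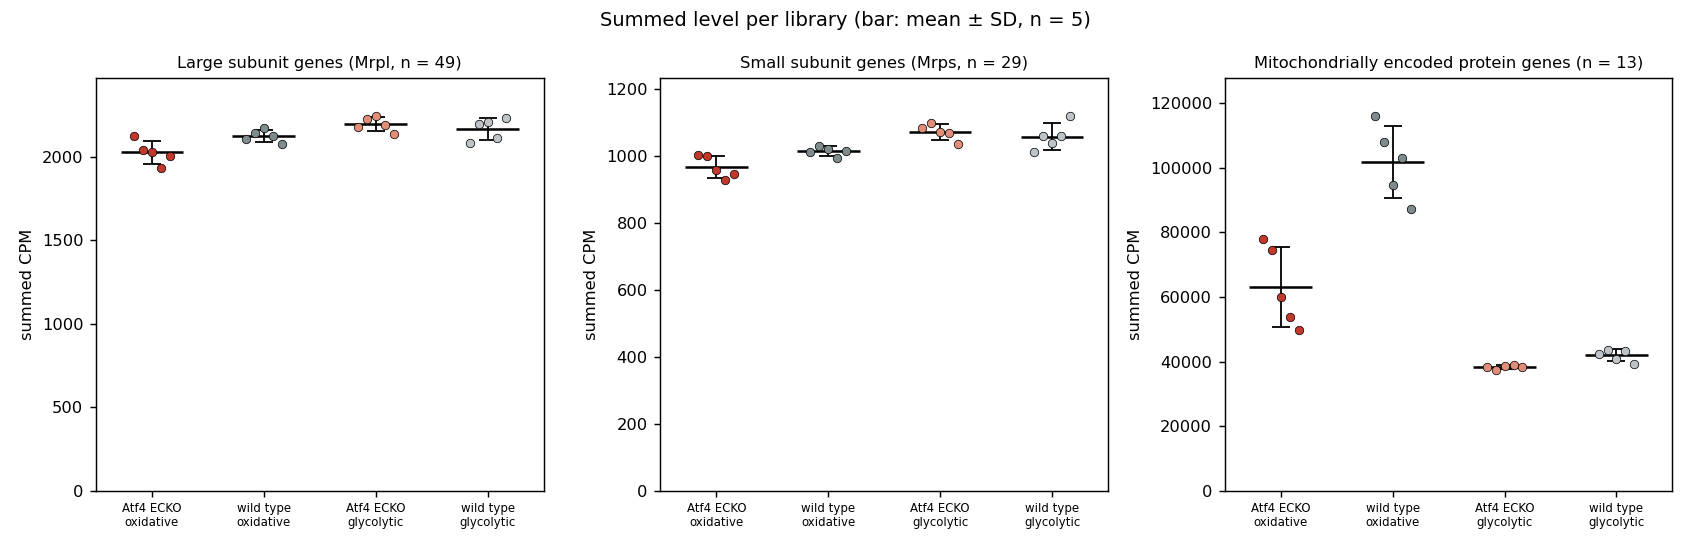
Summed CPM of the 49 large subunit genes, the 29 small subunit genes and the 13 proteins encoded by mitochondrial DNA in every library (points) with mean ± SD of each group of 5, Atf4 ECKO left of WT in each muscle. The subunit sums stay close together while the mitochondrially encoded sum is 63160 CPM in Atf4 ECKO and 101890 CPM in WT soleus.

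Other nuclear genes of mitochondrial translation gave a comparison for the members. Over all tested genes, 14.6% were called higher and 17.4% lower in Atf4 ECKO than in WT soleus. In glycolytic muscle these shares were 13.9% and 15.1%. The lists below are short, and their counts were not tested against these shares. Of 26 tested genes of ribosome assembly, 5 were higher and 2 lower in Atf4 ECKO than in WT soleus, and 9 were higher in Atf4 ECKO than in WT glycolytic endothelium, where the median was 0.20. Without libraries 1, 2 and 3 of Atf4 ECKO soleus, 1 was higher and 2 were lower there. The strongest rises in glycolytic muscle were those of Rpusd4, a pseudouridine synthase of the large ribosomal RNA, with 34.2 CPM ± 1.82 in Atf4 ECKO and 20.4 CPM ± 2.34 in WT (log2 fold change 0.75, adjusted p = 3.57e-07), Trub2 at 0.58 and the methyltransferase gene Mrm3 at 0.65. In soleus Mterf3 was at -0.37 (adjusted p = 4.39e-05) and Fastkd2 at -0.49 (adjusted p = 0.000111).

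Of 18 translation factors, 2 were higher and 2 lower in Atf4 ECKO than in WT soleus, and 3 were higher and 1 lower in glycolytic muscle. Tufm, the elongation factor that brings tRNA to the ribosome, was higher in Atf4 ECKO in both, at 0.25 in soleus (edgeR adjusted p = 0.00032) and 0.22 in glycolytic muscle (adjusted p = 0.00124). Pdf, which removes the formyl group from new proteins, was at 0.37 in soleus, and Mrrf, which recycles ribosomes, was at 0.34 in glycolytic muscle. Of 17 mitochondrial tRNA synthetases, 3 were higher in Atf4 ECKO soleus, and 3 were higher and 1 lower in Atf4 ECKO glycolytic endothelium, with Iars2 higher in both at 0.25 and 0.24. The counts in soleus without libraries 1, 2 and 3 of Atf4 ECKO were 2 higher and 2 lower for the factors, and 2 higher for the synthetases.

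Of 5 subunit genes outside the symbol rule, Chchd1 was lower in Atf4 ECKO soleus at -0.18 (adjusted p = 0.0240) and Gadd45gip1 higher in Atf4 ECKO glycolytic endothelium at 0.23 (adjusted p = 0.0180). Of 18 genes of mitochondrial DNA transcription and RNA processing, 4 were higher and 4 lower in Atf4 ECKO soleus, and 2 were higher and 1 lower in Atf4 ECKO glycolytic endothelium. Tfb2m and Tfam, which start mitochondrial transcription, were at -0.58 (adjusted p = 1.49e-05) and -0.35 (adjusted p = 0.000647) in soleus by edgeR. Tfb2m was at -0.47 and Tfam at -0.31 without libraries 1, 2 and 3 of Atf4 ECKO, and 3 genes of this list were then higher and 4 lower. Of 9 regulators of nuclear genes for mitochondria, Myc was lower in Atf4 ECKO soleus, with 69.2 CPM ± 15.1 against 108 CPM ± 7.41 in WT soleus, with a log2 fold change of -0.65 that was -0.999 without those libraries, and higher in Atf4 ECKO glycolytic endothelium, with 94.3 CPM ± 3.07 against 69.1 CPM ± 7.18 in WT. Nrf1, the factor of the NRF1 motif, had 53.2 CPM ± 3.94 in Atf4 ECKO and 40.1 CPM ± 3.78 in WT glycolytic endothelium (log2 fold change 0.41, edgeR adjusted p = 7.76e-05).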

How the data were processed

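RNA-seq libraries of 5 samples in each of 4 groups were analysed from 1 deposited table per library. Per the file headers, the authors deposited estimated counts per transcript, and TPM (levels scaled by the authors to transcript length and to a fixed library total). The submitters' processing notes name kallisto and DESeq2 without versions and the build GRCh38.p13, a human assembly, although the transcript identifiers are mouse Ensembl ones. Of 129439 transcripts, 128643 were found in GENCODE vM21 (GRCm38), which gave gene names and coordinates. Reads were single-end, 100 bases long, from a stranded poly(A) kit, per the labels' protocols. Aligner settings and strand use are not stated in any source used here.

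Estimated counts were summed per gene and rounded. The unmatched share was at most 0.221% of a library, and a single gene, CT010467.1, held 8.91% to 12.2% of each library. All genes were tested in 1 fit of group means over the 20 libraries with edgeR 4.0.16 (R 4.3.3): TMM factors, filterByExpr, quasi-likelihood F test, Benjamini-Hochberg adjustment over 13971 genes, and a call at an adjusted p below 0.05. An SE is the log2 fold change over the square root of F, and 95% intervals use the t distribution. CPM values use TMM-scaled library sizes. TPM served only to compare levels between genes. Tables were handled in Python 3.11.15 with pandas 2.3.3, and the scripts were tested on simulated data. Of 40 pairs of libraries within groups none agreed within counting noise, the lowest chi-square per degree of freedom being 2.639. Intervals cover the spread between libraries, and precision is limited by 5 libraries a group and by totals of 8013223 to 21720127 counts.

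The 78 genes, the other gene lists and the tests were chosen with earlier results of these data known. Values of every library were given for the 3 called members with the largest rise and the 3 with the largest fall in each comparison of groups among those with a mean of at least 4 CPM, the 3 with the smallest adjusted p of the interaction, and the 2 highest and 2 lowest in TPM. Genes of other lists were named by smallest adjusted p, at most 3 per list and comparison; Ndufs6, Tcp1, Apba3, Ppp1r10 and Slc5a3 were named as neighbours. Alternatives were RLE factors, no filter, DESeq2 1.42.0, limma-voom (limma 3.58.1), a replicate block, coding transcripts alone, an offset for effective length, library sizes without mitochondrial RNA and the top gene, the compared groups alone, and leaving out libraries.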

Additional observations from a re-analysis of the deposited data

Results flagged for a closer look

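Of 72 groups of 5 libraries over the 18 genes whose libraries are listed, 6 held a library far from the other 4, and chance gives about 1 in 20 groups. In Atf4 ECKO soleus these were Mrpl36 at 45.7 CPM in library 2, Mrpl45 at 37.8 CPM in library 5, Mrpl11 at 25.7 CPM in library 4 and Mrps18b at 41.5 CPM in library 4. In WT soleus Mrpl24 stood at 51.3 CPM in library 5, and in WT glycolytic endothelium Mrpl17 stood at 154 CPM in library 2. Libraries 4 and 5 of Atf4 ECKO soleus hold almost no Y-linked RNA, with 0.932 and 1.097 CPM. The part of this in those values was not tested.

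The effect of genotype, Atf4 ECKO against WT, differed between the muscles for 17 members by edgeR's interaction test over all genes. These were 21.8% of the 78, against 22.6% of all tested genes, which is near the background. The log2 effect in soleus minus that in glycolytic muscle was -0.89 for Mrps18b (adjusted p = 1.68e-07), 0.54 for Mrpl18, 0.55 for Mrpl34, -0.35 for Mrps17, -0.52 for Mrpl47, -0.40 for Mrpl54 and -0.46 for Mrpl35. It was -0.40 for Mrpl49, -0.26 for Mrpl20, -0.28 for Mrpl36, -0.36 for Mrpl21, -0.27 for Mrpl33, -0.22 for Mrpl12, -0.23 for Mrpl9, 0.29 for Mrpl39, -0.35 for Mrps10 and -0.28 for Mrpl50. The highest adjusted p among them was that of Mrpl50 at 0.0377. Those of Mrpl39 (adjusted p = 0.296), Mrpl9 (0.142), Mrpl33 (0.0698) and Mrpl50 (0.0655) did not pass without libraries 1, 2 and 3 of Atf4 ECKO soleus. Immune, muscle fibre, mural and Y-linked RNA, and in glycolytic muscle fibroblast RNA, also differed between the genotypes. Of 8 endothelial genes, 2 were called higher and 2 lower in Atf4 ECKO than in WT soleus, and 7 were called lower in glycolytic muscle. Fibroblast RNA differed in soleus as well when those libraries were left out. The part of all these in the differences was not tested.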

How the results depend on the processing

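Of 24 log2 fold changes of named members, 23 kept their direction and their call under every alternative; the exception was Mrpl39 in soleus. No value reversed. Without a filter on low counts, 4 members were higher in Atf4 ECKO than in WT soleus (7 as reported), 13 lower in WT soleus than in WT glycolytic (21), 11 lower in Atf4 ECKO soleus than in Atf4 ECKO glycolytic endothelium (17), and 7 interactions were negative (14). Without libraries 1, 2 and 3 of Atf4 ECKO soleus, 2 members were higher there than in WT (7), as were 1701 of 14856 tested genes (2035 of 13971). With an offset for effective length, 14 were lower in Atf4 ECKO soleus than in WT (23), 1 was higher in Atf4 ECKO soleus than in Atf4 ECKO glycolytic endothelium (0), and 6 interactions were positive (3) and 6 negative (14). In a fit of the compared groups alone, 10 were higher in WT soleus than in WT glycolytic endothelium (6). The causes were not tested.

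Leaving out each library in turn gave 5 to 9 members higher and 18 to 24 lower for Atf4 ECKO against WT in soleus, and 6 to 10 higher and 8 to 11 lower in glycolytic muscle. For oxidative against glycolytic muscle it gave 5 to 7 higher and 13 to 22 lower in WT, with 13 without library 5 of WT soleus or library 4 or 5 of WT glycolytic endothelium, and 0 higher and 10 to 21 lower in Atf4 ECKO, with 10 without library 3 of Atf4 ECKO glycolytic endothelium. Interactions were positive for 2 to 5, with 5 without library 5 of Atf4 ECKO soleus, and negative for 8 to 14, with 8 without library 3 of Atf4 ECKO glycolytic endothelium.

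The libraries share replicate numbers across groups, but same-numbered libraries did not deviate together. Correlations were -0.0585 to 0.0996 over 20 pairs, of which 4 were the best of their library, so the main fit used no pairing. Such low correlations cannot exclude a shared animal or batch behind the numbers. With the replicate number as a block, 6 members were higher and 24 lower in Atf4 ECKO than in WT soleus, and 8 and 9 in glycolytic muscle. For oxidative against glycolytic muscle the block gave 7 higher and 14 lower in WT and 0 and 17 in Atf4 ECKO, and 3 positive and 14 negative interactions.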
